A study of Mus musculus with 9 samples.

Results

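A set of 28 genes stood lower in PT-22 kidney tubule cells 6 days after 4-hydroxytamoxifen and had not come back by day 12, after doxycycline. The set was read from 55487 gene rows on CPM (each count scaled to the sum of its library), taken as the mean of log2(CPM + 0.5) over the 3 libraries of a day. A gene entered if its day 0 mean was at least 3 CPM, its log2 difference between day 6 and day 0 was -1.2 or lower, and its log2 difference between day 12 and day 6 lay between -0.3 and 0.3. Of 10949 genes with at least 3 CPM at day 0, 272 passed the fall at day 6. Among them 239 rose again by more than 0.3, 1 (Mast4) fell on by more than 0.3, and 32 stayed in the window. Of those 32, 4 were set aside by name (solute carrier, cadherin and IGF-binding protein genes), which left the 28. Because the measured values chose the genes, the differences between days below are descriptions and carry no test of their own.

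PT-22 is a mouse proximal tubule cell line; the cells used here are Pax2-/-, Pax8fl/fl, Rosa-CreERT2 in every group and carry Pax8 in pTRIPZ, a vector that doxycycline switches on. Day 0 libraries came from untreated cells. Those of day 6 followed 4-hydroxytamoxifen at 1 uM, and those of day 12 followed a further 6 days in which doxycycline (1 ug/ml) was added every 2 days; each day has replicates A, B and C. All cells were grown with 3% serum, and polyadenylated RNA was sequenced in bulk. The protocol gives 2 days of 4-hydroxytamoxifen, and the design gives 6 days of depletion. How these periods relate is not spelled out. Whether the replicates of a day were grown apart is not said, so p-values measure only a spread between libraries that may be technical. The design has 1 engineered line and no vehicle-treated, later untreated or doxycycline-free group, so drug, time in culture and PAX8 cannot be told apart.

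PAX8 is a paired-box transcription factor that, with its relative PAX2, acts early in the kidney lineage and stays on in parts of the adult tubule. CreERT2 is a recombinase that works when 4-hydroxytamoxifen is bound, and it removes gene segments flanked by loxP sites. The series set out to compare expression after PAX8 loss and after its rescue.

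Each library held 56397100 to 86765292 counts over 21213 to 22139 detected genes, and a single count (1) equalled 0.0115 to 0.0177 CPM. Pax8 did not fall at day 6: its CPM values in replicates A, B and C were 282, 280 and 282 at day 0, 388, 395 and 396 at day 6, and 527, 535 and 521 at day 12. A count over the whole gene cannot check the deletion of a segment, and endogenous and vector Pax8 share it. Pax2 was read at 30.8 ± 2.3, 45.6 ± 2.9 and 55.7 ± 3.2 CPM (SD, n = 3 each) although the label gives it as deleted. Of 19 proximal tubule markers, 12 stood under 1 CPM and 4 (Slc34a1, Slc5a12, Slc22a6 and Cyp2e1) had no count in any library; Aqp1, Lrp2, Gatm and Slc6a18 were the highest. Their summed level was 535 to 628 CPM at day 0, 396 to 425 at day 6 and 447 to 504 at day 12. In bulk RNA, fewer cells of a type and less RNA per cell cannot be told apart.

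Promoter sequences of 25 of the 28 genes, with 38 start sites, were found in RefSeq (GRCm38.p6). The 250 bases before each start were searched on both strands for the 7 letters GCGTGAC, a core of the sequence bound by PAX2, PAX5 and PAX8, for the CCAAT box, and for TTTGAA, the cell cycle homology region found before many mitotic genes. No 2 of these motifs overlapped in the windows printed here. The PAX core was present at 1 of the 38 start sites (2.63%), that of Cenpe, against 1.78% of all 32851 promoters and 3.7% of 243 start sites of the genes that rose again. CCAAT was present at 14 (36.8%, against 33.8% of all promoters and 33.7% of those 243 start sites), and TTTGAA at 7 (18.4%, against 16.0% and 9.47%). A match is a description of letters and not a binding site. Printed below are the windows of Cenpe, which alone carried the PAX core, of Depdc1a, which carried both CCAAT and TTTGAA close to its start, and of Idi1, with CCAAT on the minus strand at 45 and 14 bases before its start. All are on the plus strand, 5′ to 3′, with the motif matches in capitals; on the minus strand CCAAT appears as ATTGG, and TTTGAA likewise as TTCAAA.
Cenpe, chr3:135212313-135212562: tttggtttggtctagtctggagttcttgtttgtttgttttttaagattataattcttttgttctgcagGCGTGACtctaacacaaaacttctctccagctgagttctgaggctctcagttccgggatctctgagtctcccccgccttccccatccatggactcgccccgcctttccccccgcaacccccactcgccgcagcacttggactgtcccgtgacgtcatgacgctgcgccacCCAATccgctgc
Depdc1a, chr3:159495183-159495432: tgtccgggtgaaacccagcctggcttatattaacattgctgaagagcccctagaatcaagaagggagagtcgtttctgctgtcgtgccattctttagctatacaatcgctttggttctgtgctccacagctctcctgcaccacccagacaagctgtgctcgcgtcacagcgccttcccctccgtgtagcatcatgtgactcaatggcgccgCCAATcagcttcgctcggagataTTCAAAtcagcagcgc
Idi1, chr13:8885356-8885605: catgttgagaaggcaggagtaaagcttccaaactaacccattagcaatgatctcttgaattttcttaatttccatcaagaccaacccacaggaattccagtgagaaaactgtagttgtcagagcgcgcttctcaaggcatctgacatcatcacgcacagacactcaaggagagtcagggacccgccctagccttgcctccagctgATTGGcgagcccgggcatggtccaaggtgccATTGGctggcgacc
In the Cenpe window the PAX core began 182 bases and the CCAAT box 12 bases before the start. In the Depdc1a window the CCAAT box began 39 bases and the TTTGAA match 16 bases before the start. All starts here are those of RefSeq. For Cenpe and Idi1 the gene start in GENCODE, used for the coordinates below, lies inside the printed window and ahead of the CCAAT matches.

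As a set, the 28 genes stood at 17.0% to 43.2% of their day 0 level at day 6 (median 37.8%) and at 17.0% to 51.5% at day 12 (median 42.0%). In each of the 28, all 3 day 0 libraries lay above all 6 later libraries, as they did in 24.3% of the 10949 genes with at least 3 CPM at day 0; the rule largely fixes this. The day 6 and day 12 libraries overlapped for 13 genes; for 14 genes the day 12 libraries all lay above those of day 6, against 59% of those 10949 genes, and for Ankrd33b all lay below, against 13.4%. Nothing is read from these shares, since the rule used the same contrasts. Together the genes took 0.222% to 0.225% of all counts at day 0, 0.0824% to 0.084% at day 6 and 0.0868% to 0.0911% at day 12. The median coefficient of variation between replicates was 3.32%, 4.43% and 5.34% at the 3 days, against 3.15%, 3.1% and 3.41% for all genes with at least 3 CPM at day 0.

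**Figure D1:**
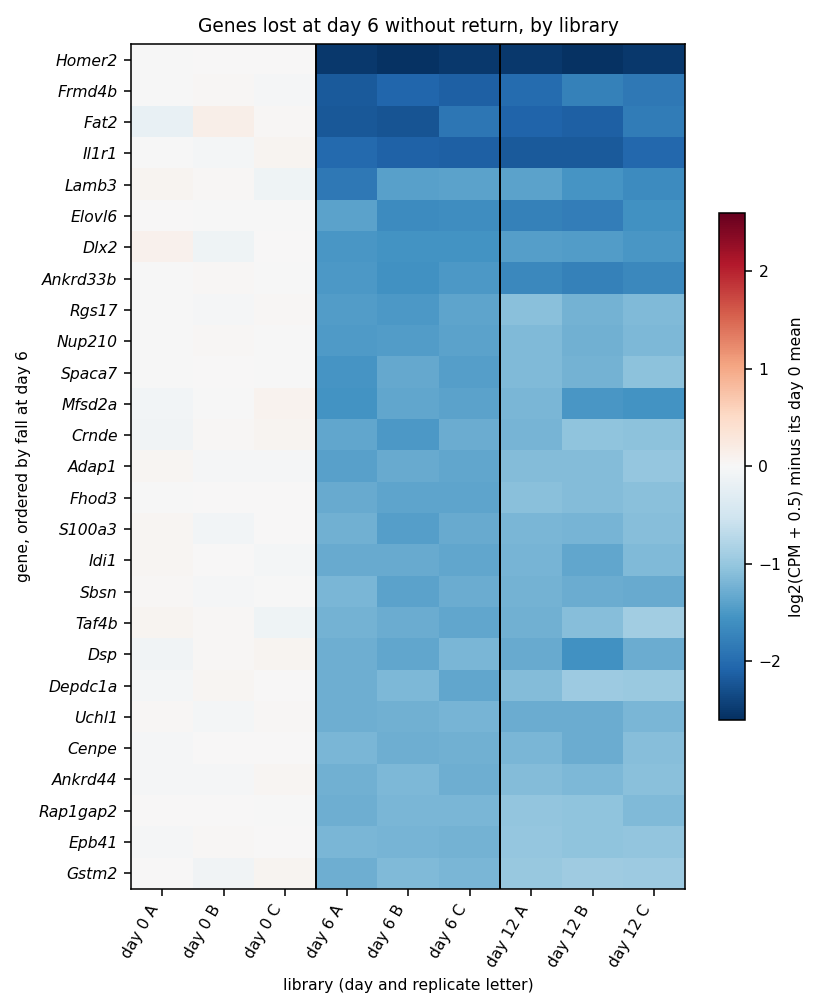
Each row is 1 of 27 of the 28 genes and each column 1 library; colour gives log2(CPM + 0.5) minus the mean of the 3 day 0 libraries of that gene, blue for lower. The 6 later libraries are blue in all 27 rows, darkest for Homer2, Frmd4b, Fat2 and Il1r1, and day 12 is close in shade to day 6.

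In edgeR's quasi-likelihood test on TMM-scaled counts (Benjamini-Hochberg adjusted p under 0.05), all 28 were called lower at day 6 than at day 0, where 31.4% of the 16353 genes tested were called lower and 33.5% higher. All 28 were also called lower at day 12 than at day 0, against 31.7% of genes called lower and 34.7% higher. Between day 12 and day 6, 5 were called higher (among them Nup210, Adap1, Fhod3 and Gstm2), against 22.6% of all genes, and 7 lower (Homer2, Il1r1, Elovl6, Ankrd33b, Sbsn, Dsp and Uchl1), against 22.7%. The rule used these contrasts, so nothing is read from these counts. The 3 comparisons share their libraries pairwise. With limma on log2(TPM + 1) in place of edgeR on counts, which changes both the test and the scale (TPM divides by transcript length and scales each library to one total), the split of all calls between day 12 and day 6 went from 50% to 90.1% higher, and between day 12 and day 0 from 52.3% to 81.3%.

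The number of genes that met the rule moved with the scaling of the libraries. On the CPM of the rule, the median gene with at least 3 CPM at day 0 stood 0.134 higher (log2) at day 12 than at day 6, and the median of the 28 stood 0.12 higher. After TMM scaling, which lines up the bulk of genes, the median gene stood at 0.002 and the median of the 28 at 0.005, with 14 of them above 0. On deposited TPM the medians were 0.206 and 0.219. Mitochondrially encoded genes took 6.66% to 6.94% of counts at day 0, 7.04% to 7.18% at day 6 and 2.1% to 3.96% at day 12; their part in this shift was tested only by leaving them out of the column sums, which took the median gene to 0.071 and the number chosen from 28 to 32. The rule kept 47 genes on TMM-scaled CPM, 26 of them shared with the 28, and 16 on TPM, 13 of them shared. A core of 8 genes was chosen under each of the 3 other scalings and with each of the 9 libraries left out in turn: Homer2, Il1r1, Dlx2, Nup210, S100a3, Idi1, Sbsn and Uchl1.

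**Figure D2:**
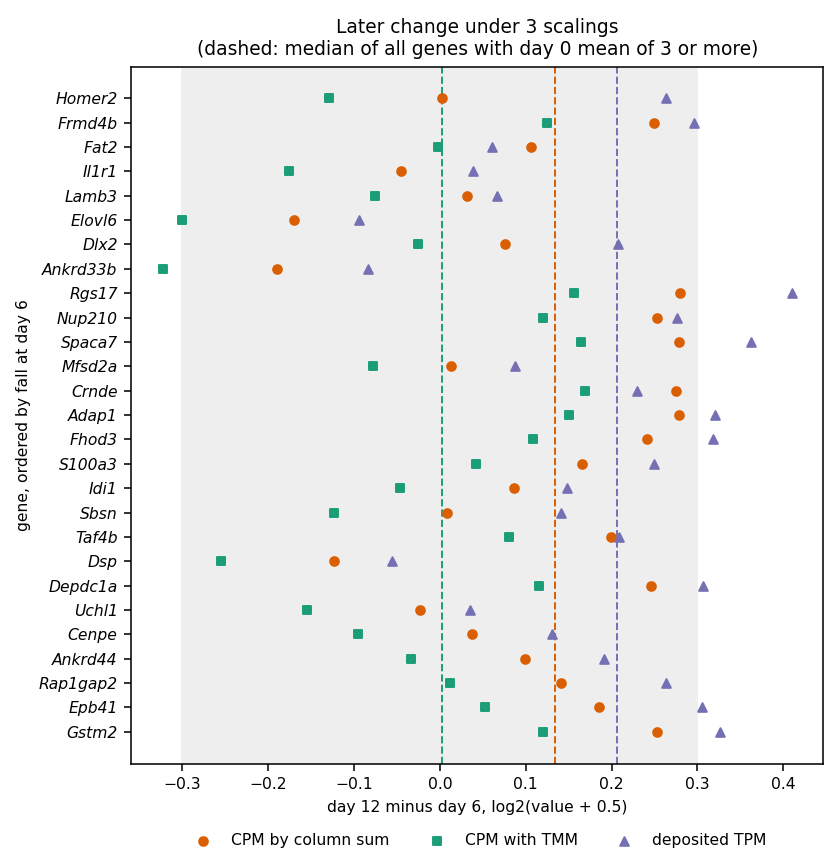
The difference between day 12 and day 6, log2(value + 0.5), is given for 27 of the 28 genes under CPM by column sum (circles), CPM with TMM (squares) and deposited TPM (triangles); dashed lines mark the median gene with a day 0 mean of 3 or more on each scale (0.134, 0.002 and 0.206). The shaded band is the window of the rule, which every circle fills by construction, while 2 squares and 7 triangles lie beyond it.

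Among the 272 genes past the fall, those that rose again had a median log2 difference of -1.78 at day 6 and then gained 0.84, and their median difference between day 12 and day 0 was -0.918; that of the 28 was -1.19. The genes just inside and just outside the rule were close in value at the limit of the fall and at the top of the window. They lay further apart at the bottom of the window and at the minimum of 3 CPM. At the limit of the fall, Gstm2 (a level at day 6 of 43.2% of day 0), Epb41 (43.1%) and Rap1gap2 (42.4%) were in, and Ccna2 (44.0%) and Pi4k2b (44.9%) were out. At the top of the window, Rgs17, Adap1 and Spaca7 (a log2 difference of 0.28 each) were in, and Gpr161 (0.30), Adarb1 (0.32) and Map7 (0.33) were out. At the bottom, Ankrd33b (-0.19), Elovl6 (-0.17) and Dsp (-0.12) were in and Mast4 (-0.30) was out. At the minimum of 3 CPM, Mfsd2a (3.76), Crnde (5.07) and Dlx2 (5.36) were in, while Odaph (1.9), Plet1 (1.71) and Tmed6 (1.37) were out.

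**Figure D3:**
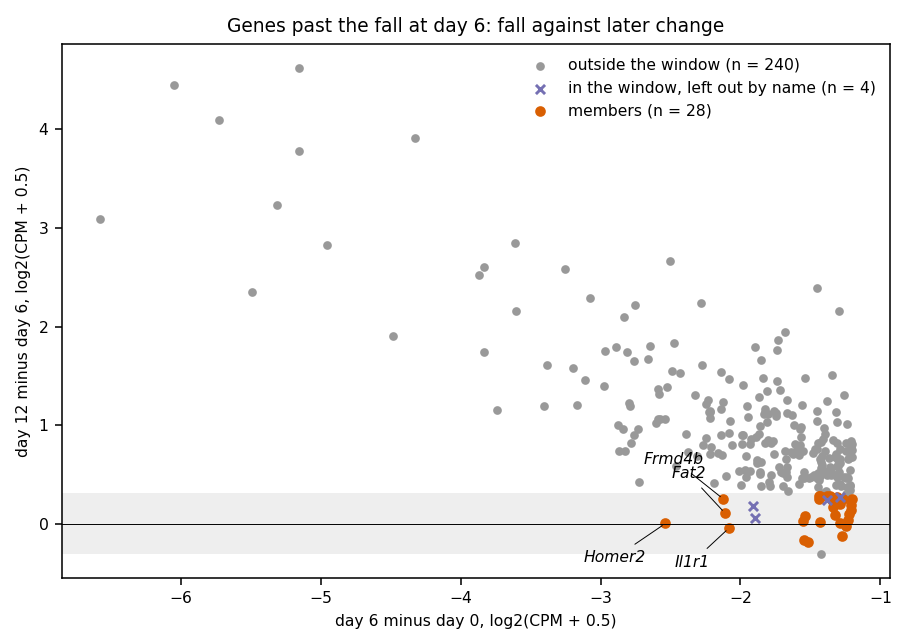
Each point is 1 of the 272 genes past the fall; the horizontal axis gives day 6 minus day 0 and the vertical axis day 12 minus day 6, both in log2(CPM + 0.5), and the band is the window of the rule. The 28 genes (filled, in the band) sit mostly at the shallow end of the fall, with Homer2, Frmd4b, Fat2 and Il1r1 beyond 4-fold.

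Scaffold and cytoskeleton genes ranged from the deepest fall of the set (Homer2) to one of the shallowest (Epb41, 27th of 28). Homer2 (ENSMUSG00000025813, chr7:81600481-81707527, minus strand) encodes a scaffold that links glutamate receptors to calcium stores at synapses; coordinates here and below are those of the whole gene in GRCm38, from GENCODE M21. Its CPM was 139, 141 and 141 in the day 0 libraries, 24.1, 23.2 and 24.2 at day 6, and 24.4, 23.1 and 24.1 at day 12. The 6 later libraries were interleaved, at 17.0% of day 0 on both days. The log2 difference was -2.54 at day 6 and 0.00 from day 6 to day 12, whereas in TPM Homer2 went from 65.5 ± 1.5 through 10.1 ± 0.37 to 12.3 ± 0.92 (SD, n = 3 each). Of the other tested Homer genes, Homer1 fell at day 6, by a log2 fold change of -0.58 ± 0.05 (SE, adjusted p = 5.6e-08, edgeR), and Homer3 was not called (0.05 ± 0.03), although limma on log2(TPM + 1) called it higher (0.138).

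Frmd4b (chr6:97286867-97617541, minus strand), a FERM-domain scaffold, read 26.0, 26.7 and 25.5 CPM at day 0, 5.36, 5.89 and 5.58 at day 6, and 6.12, 7.34 and 6.86 at day 12. Its day 12 libraries all lay above those of day 6, at 26.0% of day 0. Its closest relative Frmd4a rose at day 6 by 0.26 ± 0.04 (log2 fold change, SE). Epb41 (chr4:131923413-132075321, minus strand) encodes protein 4.1, which ties spectrin and actin to the membrane. It read 174, 182 and 180 CPM at day 0, 77.9, 77.0 and 76.2 at day 6, and 88.6, 86.2 and 88.1 at day 12, so that every day 12 library was above every day 6 library and far below day 0. Of 6 other tested band 4.1 genes, 3 rose and 1 fell at day 6, among them Epb41l1 (0.56 ± 0.03) and Epb41l2 (0.47 ± 0.03), which rose. Fhod3, a formin of the actin cytoskeleton on chromosome 18, had the highest CPM of the set: 231, 234 and 235 at day 0, 94.4, 90.2 and 90.4 at day 6, and 109, 107 and 109 at day 12. Of the 11 other tested formins, 8 rose and 3 fell at day 6; its closest relative Fhod1 rose by 0.49 ± 0.05.

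Genes of adhesion and of stratified epithelium made up a second group. Fat2 (chr11:55250609-55336564, minus strand), a giant atypical cadherin, was the lowest of the set per length, with 0.967 ± 0.12 TPM at day 0, and read 8.9, 11.4 and 10.4 CPM at day 0, 1.82, 1.75 and 2.41 at day 6, and 2.03, 1.97 and 2.54 at day 12. The later libraries overlapped, at 19.5% and 21.3% of day 0, and rested on 405 and 429 counts summed over the 3 libraries of each day. Fat1, the other tested member, was not called at day 6 (-0.20 ± 0.10, adjusted p = 0.095, edgeR). Fat1 was called lower without day 0 replicate A (-0.276), without day 12 replicate B (-0.201) and with no filter on low counts (-0.208). Lamb3 (chr1:193207699-193343878, plus strand) encodes the beta chain of the laminin of epidermal basement membranes. Its mean CPM was 6.78 ± 0.52, 2.01 ± 0.43 and 2.04 ± 0.21 at the 3 days. Its partner chain Lama3 rose at day 6 from 0.954 to 7.21 CPM, by 2.94 ± 0.20 (log2 fold change, SE).

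Dsp (chr13:38151294-38198577, plus strand) encodes desmoplakin, which anchors intermediate filaments at desmosomes. Its CPM was 57.2, 63.0 and 64.0 at day 0, 25.1, 23.6 and 26.7 at day 6, and 24.3, 20.2 and 24.8 at day 12, with overlap between the later days. Of 5 other tested plakins, 3 fell and 1 rose at day 6; periplakin (Ppl) fell from 139 to 77.1 CPM and envoplakin (Evpl) from 11.5 to 8.88. Sbsn (chr7:30751471-30756134, plus strand) encodes suprabasin, a protein secreted by differentiating keratinocytes. It read 153, 146 and 149 CPM at day 0, 65.2, 56.9 and 60.8 at day 6, and 63.8, 60.4 and 59.5 at day 12, so the later libraries were interleaved. Sbsn shares exon bases on the same strand with Tmem147os, so its counts are uncertain to that extent. Dmkn, which encodes another secreted epidermal protein, also fell at day 6, from 55.9 to 21.7 CPM (-1.37 ± 0.05), and rose again to 31.5 at day 12 (0.41 on the log2 scale, adjusted p = 2.4e-05, edgeR).

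S100a3 (chr3:90560578-90602702, plus strand) belongs to the S100 calcium-binding proteins and is known from the hair cuticle. It read 16.4, 15.1 and 16.0 CPM at day 0, 6.33, 5.54 and 6.06 at day 6, and 6.65, 6.54 and 7.09 at day 12. The day 12 libraries lay just above those of day 6. Of the 9 other tested S100 genes, 8 rose at day 6 and none fell; with DESeq2 size factors 1 was called lower. The risers included S100a4 (20.8 to 58.7 CPM) and S100g (1.65 to 32.3 CPM). S100a3 shares exon bases on the same strand with Gm42674, and reads of the 2 may have been split between them.

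Il1r1 (chr1:40225080-40317257, plus strand) was the only cell surface cytokine receptor of the set; it is the signalling receptor of interleukin 1. It read 113, 111 and 120 CPM at day 0, 28, 26.2 and 25.8 at day 6, and 25.0, 25.0 and 27.5 at day 12. The later libraries overlapped, and day 12 stood at 22.6% of day 0. Other parts of the interleukin 1 system went several ways at day 6, with 7 of 13 other tested genes higher and 3 lower. The accessory chain Il1rap was not called (33.5 and 34.8 CPM, 0.05 ± 0.04). The receptor antagonist Il1rn rose from 8.09 to 37.6 CPM, the cytokine Il33 from 2.08 to 11.5 and the kinase gene Irak2 from 7.3 to 22.9. Il1rl1, the receptor of IL-33, fell further than Il1r1, from 45.6 to 3.29 CPM (-3.80 ± 0.07), but then rose to 16.4 at day 12, a log2 fold change of 2.18 (adjusted p = 2.5e-11, edgeR).

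**Figure D4:**
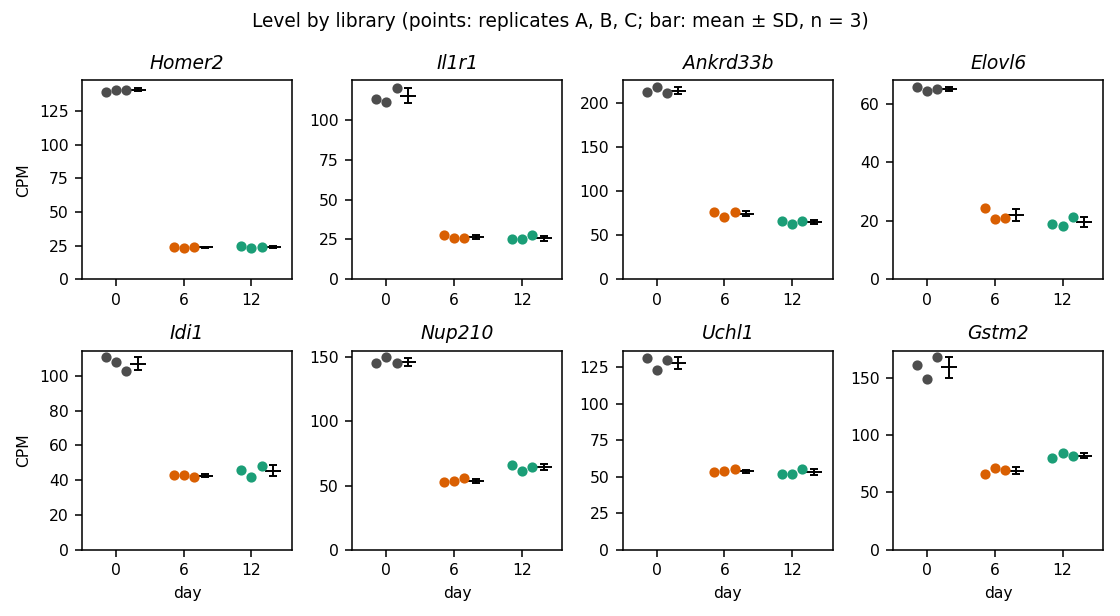
CPM in each library is given for 8 of the genes, with day on the horizontal axis, points for replicates A, B and C, and a bar for the mean ± SD (n = 3); each vertical axis starts at 0. The day 6 and day 12 points lie side by side for Homer2, Il1r1, Idi1 and Uchl1, lower at day 12 for Ankrd33b, and higher at day 12 for Nup210 and Gstm2, in all cases well under day 0.

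Among regulators of G proteins and small GTPases, the set held Rgs17, Adap1 and Rap1gap2. Rgs17 (chr10:5825663-5922400, minus strand), which speeds the shut-off of heterotrimeric G proteins, read 14.9, 14.6 and 15.3 CPM at day 0, 5.13, 4.99 and 5.43 at day 6, and 6.74, 6.04 and 6.42 at day 12. Of 11 other tested RGS genes, 5 rose and 4 fell at day 6. Adap1 (chr5:139271876-139325622, minus strand), a GTPase-activating protein for ARF6, stood at 29.5 ± 1.0, 11.2 ± 0.45 and 13.7 ± 0.72 CPM. Of 12 related ArfGAP genes, 7 rose and 1 fell at day 6, with Arap1 (25.4 to 48.8 CPM) and Arap3 (0.969 to 2.98 CPM) among the risers. Rap1gap2 (chr11:74383356-74610915, minus strand), which inactivates RAP1, stood at 32.8 ± 0.15, 13.9 ± 0.53 and 15.4 ± 0.68 CPM. All 3 had every day 12 library above every day 6 library. Of 17 other tested RAP proteins and regulators, 9 rose and 5 fell at day 6. Among those that fell were Rap1gap (24.3 to 9.65 CPM, -1.34 ± 0.08) and the RAP exchange factor Rapgef4 (18.9 to 5.14 CPM, -1.88 ± 0.06); both then rose by day 12, to 15.6 and 9.48 CPM.

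Lipid genes were Idi1, Elovl6 and Mfsd2a. Idi1 (chr13:8885501-8892451, plus strand) encodes isopentenyl diphosphate isomerase of the mevalonate pathway, which feeds cholesterol synthesis. It read 111, 108 and 103 CPM at day 0, 43.1, 43.2 and 41.6 at day 6, and 46.0, 42.0 and 48.1 at day 12, with overlap between the later days. Most other genes of the pathway fell too. Of 29 other tested genes of sterol synthesis, uptake and export, 22 fell and 6 rose at day 6, against 31.4% and 33.5% of all genes. Their median log2 fold change was -0.47, against 0.0224 for all genes. Between day 6 and day 12, 17 of the same 29 were called lower and 2 higher, against 22.7% and 22.6% of all genes. Hmgcs1 fell by -1.14 ± 0.03, and Fdps by -1.15 ± 0.04 and Cyp51 by -1.13 ± 0.04 (log2, SE). The 6 that rose included the cholesterol exporters Abca1 (4.18 ± 0.11) and Abcg1 (1.11 ± 0.08), whose role is efflux rather than synthesis.

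Elovl6 (chr3:129532355-129638495, plus strand), which lengthens palmitate to stearate, read 65.6, 64.3 and 64.9 CPM at day 0, 24.4, 20.6 and 20.9 at day 6, and 18.8, 18.2 and 21.4 at day 12. The later days overlapped through day 12 replicate C, and Elovl6 stood slightly lower at day 12 (30.0% of day 0) than at day 6 (33.8%). The fatty acid and phospholipid genes around it were mixed: of 85 others tested, 39 rose and 23 fell at day 6, and of the 4 other tested elongases 1 fell and none rose. Mfsd2a (chr4:122946850-122961188, minus strand), a carrier of lysophosphatidylcholine, was the lowest in CPM, at 3.76 ± 0.26, 1.08 ± 0.12 and 1.1 ± 0.23; its relative Mfsd2b rose at day 6 from 0.432 to 1.31 CPM.

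Cenpe and Depdc1a are genes of dividing cells. Cenpe (chr3:135212537-135273611, plus strand) encodes the kinetochore kinesin that moves chromosomes to the spindle equator. It read 162, 167 and 166 CPM at day 0, 72.3, 68.5 and 69.2 at day 6, and 72.2, 67.5 and 76.0 at day 12; the later libraries were interleaved. Of 20 other tested centromere protein genes, 17 fell and 2 rose at day 6 (median log2 fold change -0.52), with Cenpa (-0.97 ± 0.04) and Cenpf (-0.94 ± 0.05) among those that fell. Cell cycle and mitosis genes as a list had 48 of 62 others lower and 8 higher at day 6 (median -0.58); between day 6 and day 12, 22 were called higher and 15 lower. Depdc1a (chr3:159495433-159529955, plus strand), a DEP-domain gene, read 49.3, 53 and 51.8 CPM at day 0, 21, 22.5 and 19.8 at day 6, and 23.1, 26.3 and 25.9 at day 12. All its day 12 libraries lay above those of day 6, and its relative Depdc1b fell at day 6 from 7.83 to 5.15 CPM. Ccna2, the cyclin of S phase and early mitosis, lay just outside the rule at 223 ± 1.5, 98.0 ± 3.1 and 119 ± 8.5 CPM.

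Nuclear genes were Nup210, Dlx2, Taf4b and the noncoding Crnde. Nup210 (chr6:91013068-91116829, minus strand) encodes a membrane protein of the nuclear pore. It read 145, 150 and 145 CPM at day 0, 52.6, 53.2 and 55.6 at day 6, and 66.3, 61.6 and 64.7 at day 12, so it regained a little, to 43.8% of day 0. Of 27 other tested nucleoporin and pore genes, 23 fell and none rose at day 6, by smaller amounts (median log2 fold change -0.22, where 31.4% of all genes were called lower), such as Ndc1 (-0.57 ± 0.04) and Nup107 (-0.50 ± 0.03). Dlx2 (chr2:71543408-71546754, minus strand), a homeobox transcription factor of forebrain and face, read 5.83, 4.9 and 5.36 CPM at day 0, 1.55, 1.5 and 1.5 at day 6, and 1.66, 1.65 and 1.56 at day 12. The day 12 libraries lay just above those of day 6, and the values rest on 1207, 312 and 325 counts summed over the 3 libraries of a day. Its neighbour Dlx1 fell with it at day 6 (2.47 to 0.893 CPM, -1.47 ± 0.17), while Dlx3 (0.347 to 2.03 CPM) and Dlx4 (1.65 to 3.54 CPM) rose.

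Taf4b, on chromosome 18, encodes a subunit of the general transcription factor TFIID known from germ cells. It stood at 9.2 ± 0.63, 3.48 ± 0.17 and 4.08 ± 0.56 CPM, with day 12 replicate A inside the day 6 range; its relative Taf4 fell less (-0.32 ± 0.03), and of 20 other tested TFIID genes 6 fell and 3 rose. Crnde (chr8:92326033-92356120, minus strand) was the only one of the 28 not annotated as protein-coding, a processed transcript next to Irx5. It read 4.69, 5.15 and 5.38 CPM at day 0, 1.67, 1.47 and 1.78 at day 6, and 1.92, 2.2 and 2.15 at day 12. The homeobox genes Irx3 (85.7 to 19.1 CPM) and Irx5 (29.7 to 7.68 CPM) also fell at day 6 but rose again to 36 and 14.5 CPM at day 12, each by 0.79 on the log2 scale (adjusted p = 4.5e-08 and 2.0e-06, edgeR). Irx1, in the other Irx cluster, rose at day 6 from 1.36 to 6.44 CPM.

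The remaining genes have separate roles. Gstm2 (chr3:107981702-107986453, minus strand), a glutathione transferase, was the highest of the set per length, at 274 ± 13, 120.0 ± 5.0 and 150.0 ± 1.3 TPM, and stood nearest the limits of the rule, with day 12 at 51.5% of day 0. It read 161, 149 and 168 CPM at day 0, 65.6, 71.6 and 69.4 at day 6, and 80.3, 84.1 and 81.9 at day 12. Gstm1 fell further at day 6, from 1290 to 187 CPM, and came back to 429; these genes are near copies, so their shares of reads are uncertain. Uchl1 (chr5:66676091-66687234, plus strand), a ubiquitin hydrolase best known from neurons, was second per length at 199 ± 3.2 TPM and read 131, 123 and 130 CPM at day 0, 53, 53.8 and 55.0 at day 6, and 51.8, 52.1 and 55.5 at day 12, the later days interleaved. Of its 3 other tested relatives, 2 also fell at day 6, Uchl3 (-0.69 ± 0.04) and Uchl5 (-0.62 ± 0.04), and 1 rose. Uchl1 overlaps the antisense gene Uchl1os, and as the strand setting of the counting is not given in the sources used here, the 2 cannot be told apart.

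Ankrd33b (chr15:31291478-31367726, minus strand), an ankyrin repeat gene, read 212, 218 and 211 CPM at day 0, 75.9, 71.2 and 75.8 at day 6, and 66.6, 62.5 and 66.1 at day 12, the only gene of the set whose day 12 libraries all lay below day 6. Ankrd44 (chr1:54645340-54926387, minus strand), a regulatory subunit of protein phosphatase 6, stood at 129 ± 4.3, 54.7 ± 2.1 and 58.6 ± 1.9 CPM; 3 of the 6 other tested subunits rose and 2 fell at day 6. Spaca7 (chr8:12573029-12600744, plus strand), known from the sperm acrosome, stood at 8.05 ± 0.12, 2.68 ± 0.23 and 3.36 ± 0.22 CPM.

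Of 14 families with at least 5 other tested genes, more of the others rose than fell at day 6 in 8 and more fell than rose in 6. The families were named from the 28 genes after these were known, and the non-member genes named with values were chosen after their values were seen. Nearly all relatives fell with the member among nucleoporins and centromere proteins, and nearly all that changed rose among S100 proteins and ArfGAPs; in none of these 4 did the median change sign under the other scalings run. Of the 28, 9 were in any of 33 pathway lists, and no list held 2 of them. The share of all tested genes in any list was not computed, so nothing is read from these counts. None of the 16 tested genes in the list of reported PAX2- or PAX8-regulated genes was in the set. The set held 28 of the 16353 genes tested, so an overlap with 16 genes was unlikely by size alone. Nothing is read from its absence. At day 6, 7 of the 16 rose and 7 fell, against 33.5% and 31.4% of all genes tested.

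**Figure D5:**
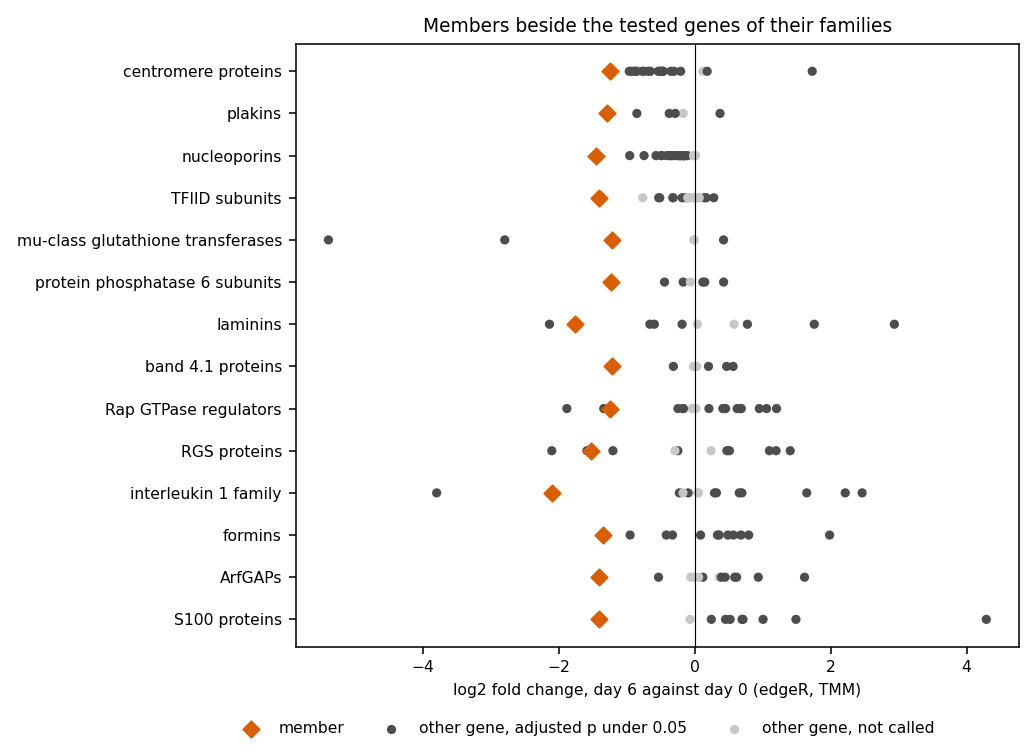
For each of 14 gene families, a diamond marks the member and dots the other tested genes (dark where adjusted p is under 0.05), on a horizontal axis of log2 fold change at day 6 against day 0 (edgeR, TMM). Diamonds lie left of 0 by the rule; the dots lie mostly left for centromere proteins (17 of 20 fell) and nucleoporins (23 of 27), and mostly right for S100 proteins (8 of 9 rose).

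In the genome, 5 of the 28 genes lay on chromosome 3 (Elovl6, S100a3, Depdc1a, Cenpe and Gstm2), 17.9% of the set against 5.28% of the genes tested. Chromosome 3 is named because it held the most genes of the set, so nothing is read from this share. No 2 genes of the set lay within 100 kb of each other. The median gene spanned 81.1 kb. On the other strand, 10 of the 28 share exon bases with another annotated gene, and reads of such pairs cannot be told apart without the strand setting. Markers of other cell types gave summed levels of 15.6 to 15.9, 31.2 to 32.7 and 29.2 to 30.4 CPM for endothelium, 698 to 702, 743 to 775 and 832 to 869 for stroma, and 68.1 to 76.0, 106 to 107 and 104 to 106 for macrophages and lymphocytes at the 3 days. For loop and distal tubule the sums were 22 to 24.1, 73.9 to 79.3 and 67.1 to 71.7, for collecting duct 215 to 232, 202 to 213 and 220 to 228, and for podocytes and parietal cells 2390 to 2440, 2170 to 2190 and 2530 to 2620 CPM. The podocyte and parietal list includes Pax8 itself, which stood at 281, 393 and 528 CPM at the 3 days. Mast cell and basophil markers summed to 25.0 to 27.4, 0.289 to 0.449 and 2.44 to 3.16 CPM. Nearly all of the day 0 sum was Ms4a2, with a day 0 mean of 25.6 CPM, so the fall of this sum is that of 1 gene. Averaged over all libraries, 12 of these 13 markers stood under 1 CPM, 7 (Kit, Fcer1a and Cpa3 among them) were at 0 in all libraries, and Ms4a2 was the highest. Of 14 endothelial markers, 1 (Tie1) was at 0 in all libraries, and Flt1, Ehd3, Egfl7 and Plvap were the highest. Of 16 macrophage and lymphoid markers, 3 (Cd3e, Ms4a1 and Tyrobp) were at 0 in all libraries, and Cd14, Csf1r, Cd68 and Lyz2 were the highest. A part of any of these cell types in the levels of the 28 was not tested.

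The 4 genes that met every number of the rule but were set aside by name followed the same course. N-cadherin (Cdh2) read 309, 304 and 316 CPM at day 0, 126, 127 and 127 at day 6, and 158, 148 and 152 at day 12. Igfbp5 read 111, 105 and 127, then 31.8, 29.9 and 28.4, then 33.1, 34.6 and 34.6 CPM. The amino acid transporter genes Slc6a19 and Slc7a5 stood at 24.1% and 38.1% of day 0 at day 6, and at 25.3% and 45.1% at day 12. In Slc6a19 the later days overlapped; in the other 3 the day 12 libraries lay above those of day 6 and below those of day 0.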

How the data were processed

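Bulk polyadenylated RNA of 9 PT-22 libraries (3 per day) was analysed. The authors deposited raw counts in whole numbers for each gene, and a table of TPM. The submitters' processing notes name GRCm38, RSEM 1.3.3, STAR 2.7.8a, cutadapt 2.3 and FastQC 0.11.8; what each did, the strand setting and the annotation were not given in the sources used here, and counts made by RSEM would be rounded estimates. Transgene entries (4) were left out of sums and tests.

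CPM was computed by column sum for the rule; groups came from the sample labels. All genes were tested in 1 fit of 9 libraries with edgeR 4.0.16 (R 4.3.3). It used TMM, filterByExpr, the quasi-likelihood F test, 6 residual degrees of freedom and Benjamini-Hochberg adjustment. The fit was also run on simulated counts in which few genes changed, which cannot test it where most genes were called. Called means an adjusted p under 0.05, and the SE is that implied by the F statistic. Log2 values of the 28 genes are on the log2(CPM + 0.5) scale, which understates changes of low genes; those of other genes are edgeR's. Positions came from GENCODE M21, where 55227 of 55487 identifiers were found. Alternatives were DESeq2 1.42.0, limma 3.58.1 on log2(TPM + 1), other scalings, filters and limits of the rule, a replicate block and each library left out. The 28 genes, the lists, families and motifs were chosen with earlier results of these data known. The naming rule gave the 28, Pax8, Pax2 and the genes next to each limit; 1 of the 28 and some others that it gave are not reported here, and further genes were picked once their values were known.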

Additional observations from a re-analysis of the deposited data

How the results depend on the processing

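The number of genes that the rule kept depended on its limits and scale. It was 28 as reported, 47 on TMM-scaled CPM, 16 on deposited TPM, 18 with a window of 0.2 and 68 with one of 0.5, 57 with a fall of at least 1 and 8 with one of at least 1.5. Leaving out 1 library at a time gave 25 to 29 genes, the fewest without day 12 replicate A (23 of the 28 kept). Under the 3 other scalings 11 of the 28 were kept throughout, and 17 with each library left out. For day 6 and for day 12 against day 0, the 28 genes kept their direction and call in every alternative and leave-one-out run. The rule chose them for these differences in the same libraries and largely fixes this, so nothing is read from it. From day 6 to day 12, limma on log2(TPM + 1) gave positive values for genes that edgeR on TMM-scaled counts had called lower: Homer2 (0.252), Il1r1 (0.036), Sbsn (0.14), Uchl1 (0.035) and Il1rn, no member (0.021). Called or not, 11 of the 28 lay below 0 on TMM-scaled CPM and above 0 on TPM, and Homer2 and Sbsn were already just above 0 on the CPM of the rule; the cause was not tested beyond the scale shift given with the scalings. With upper-quartile factors 60.5% of calls between these days were higher.

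The replicate letters did not pair the libraries: deviations of same-letter libraries correlated at -0.0834 to 0.0783, and 0 of 9 libraries correlated best with their own letter in both other groups. A replicate block gave 10485, 7221 and 10743 calls for day 6 against 0, day 12 against 6 and day 12 against 0, where the fit without it gave 10605, 7408 and 10861. Depth limits the genes under 10 CPM, where a day's 3 libraries together held as few as 223 counts.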
